A study of Mus musculus with 8 samples.

Results

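A set of 10 genes that mark microglia and macrophages were read out in E15.5 mouse hippocampus after intrauterine growth restriction (IUGR). The members were the table entries named Cx3cr1, Csf1r, P2ry12, Aif1, C1qa, C1qb, C1qc, Trem2, Tyrobp and Mrc1, which is 10 of the 16397 genes listed, and all 10 passed the count filter that left 13707 protein-coding genes for testing. All animals were of the C57Bl/6J strain and of both sexes. The dam of an IUGR embryo received, at E12.5, a micro-osmotic pump that released U-46619, a stable analog of the vasoconstrictor thromboxane A2 that raises maternal blood pressure. The dam of a sham embryo had the same surgery with a pump that held only vehicle, so every sample carries the effects of surgery and pump. Hippocampi were dissected at E15.5 and total RNA was sequenced after removal of ribosomal RNA, with 4 IUGR samples (T1-1, T1-3, T1-4 and T1-5) and 4 sham samples (S1-4, S1-6, S3-1 and S3-4). The labels do not say whether samples of a group came from separate dams, so the p values below measure the spread between these samples only.

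Microglia are the resident macrophages of brain tissue. They descend from yolk sac progenitors that enter the embryonic brain early, and they depend on the receptor Csf1r for survival. Border-associated macrophages share this origin and many genes, but they sit in the meninges, the perivascular spaces and the choroid plexus, where they carry the mannose receptor Mrc1 (CD206), while P2ry12 is typical of microglia inside the tissue. In a bulk sample, fewer cells of a type and less RNA per cell cannot be told apart.

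No member passed the test for a difference between IUGR and sham hippocampi. With edgeR's quasi-likelihood test, 0 of 10 members were called, that is, none reached a 2-fold difference (log2 fold change of 1 or -1) together with an adjusted p no higher than 0.05, and 0 of 10 had an unadjusted p under 0.05. DESeq2 and limma-voom also called 0 of 10 and also gave 0 of 10 with an unadjusted p under 0.05. Over all tested genes, edgeR called 200 (1.46%), of which 14 were higher and 186 lower in IUGR, and 11.1% had an unadjusted p under 0.05. The levels of the groups overlapped for all 10 members, whereas they did not overlap for 7.14% of tested genes. The extremes mostly lay among the IUGR samples: T1-3 held the highest level of 9 of 10 members, and T1-1 or T1-4 held the lowest level of 8 of 10. Levels are given as CPM, the counts of a gene per 1000000 counts of its library after TMM scaling, and SD is the standard deviation of 4 samples.

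**Figure D1:**
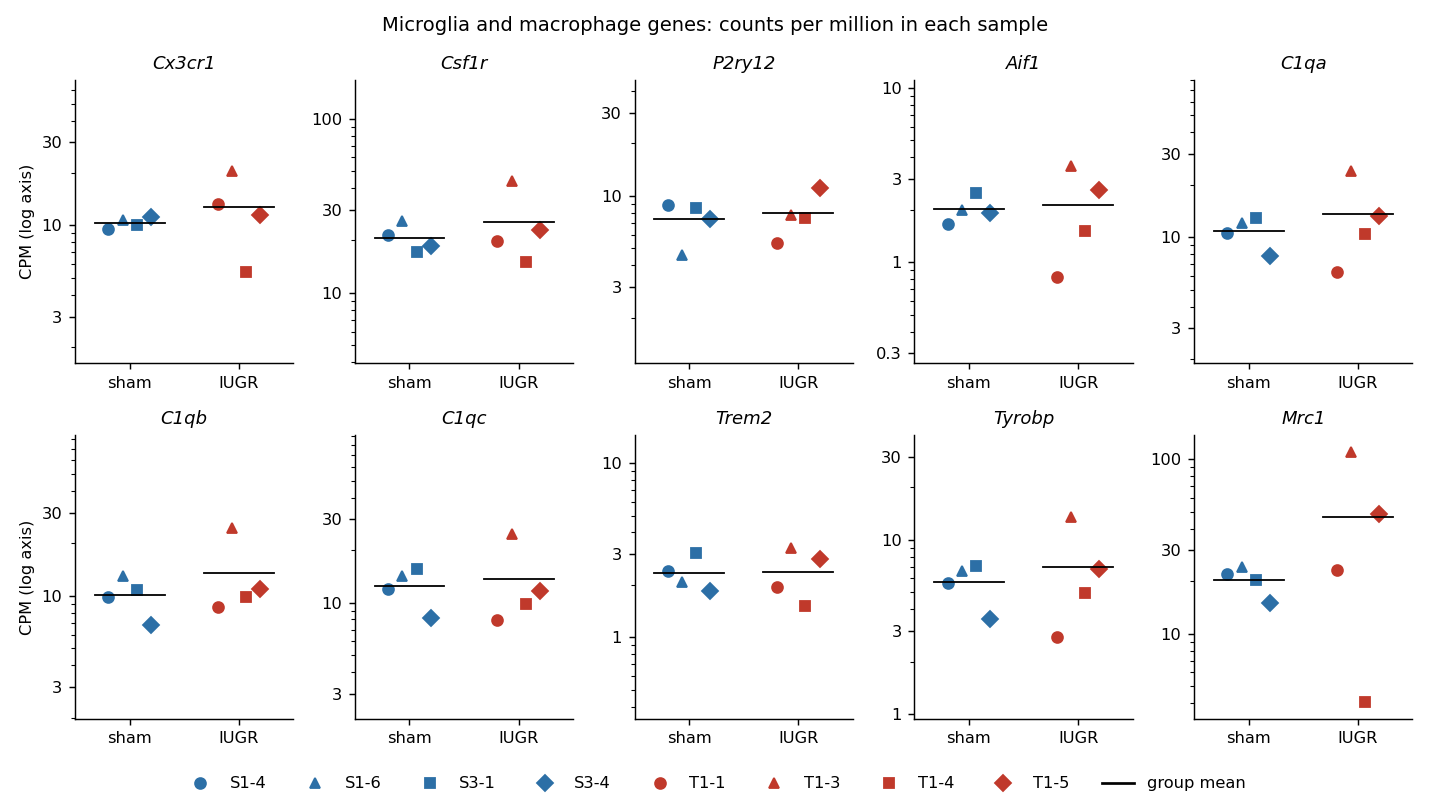
CPM of each of the 10 genes (log axis, each panel spanning the same fold range) in the 4 sham (blue) and 4 IUGR (red) samples, with symbols for samples and a line at the group mean. T1-3 (red triangle) is the highest of 8 samples for every gene except P2ry12, and the Mrc1 levels of IUGR samples run from 4.04 to 111 CPM against 14.97 to 24.2 CPM in sham samples.

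The proximal promoters of 4 members held the letters AGGAAGT or, on the other strand, ACTTCCT, the core of sites bound by ETS-family factors such as PU.1, the master regulator of macrophage genes. Shown are the 4 windows that hold these letters. Of their genes, C1qb and C1qc moved together across samples (Pearson r = 0.93), though C1qa and Tyrobp did so more closely (0.99). Mrc1 and P2ry12 had the widest and the narrowest spread between IUGR samples. A link between the letters and these levels was not tested. Of the 10 members, 7 matched an entry among the RefSeq promoters (GRCm38.p6), which run from 250 bases before to 50 bases after the start of the gene. These letters occurred in the entries of 4 of the 7, against 9.35% of all 32851 entries of the same length. The matches began 53 bases (C1qb), 195 bases (C1qc), 211 bases (Mrc1) and 52 bases (P2ry12) before the RefSeq start. The gene starts of GENCODE M21, from which the gene coordinates below are taken, differ from those of RefSeq, and counted from them the distances are 66, 44, 189 and 166 bases, with the P2ry12 window wholly upstream of the GENCODE gene. They were not found in the windows of Cx3cr1, Aif1 and Trem2. Each sequence is written 5′ to 3′ on the strand of the gene, with the matched letters in capitals. The windows lie at chr4:136886151-136886450 (C1qb, minus strand), chr4:136892865-136893164 (C1qc, minus strand), chr2:14229164-14229463 (Mrc1, plus strand) and chr3:59262936-59263235 (P2ry12, minus strand).
C1qb: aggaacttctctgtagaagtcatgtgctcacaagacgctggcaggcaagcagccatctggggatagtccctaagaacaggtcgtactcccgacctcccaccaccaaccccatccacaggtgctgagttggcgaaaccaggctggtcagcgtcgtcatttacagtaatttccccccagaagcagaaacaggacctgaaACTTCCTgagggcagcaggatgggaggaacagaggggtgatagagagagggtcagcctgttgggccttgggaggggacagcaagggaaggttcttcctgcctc
C1qc: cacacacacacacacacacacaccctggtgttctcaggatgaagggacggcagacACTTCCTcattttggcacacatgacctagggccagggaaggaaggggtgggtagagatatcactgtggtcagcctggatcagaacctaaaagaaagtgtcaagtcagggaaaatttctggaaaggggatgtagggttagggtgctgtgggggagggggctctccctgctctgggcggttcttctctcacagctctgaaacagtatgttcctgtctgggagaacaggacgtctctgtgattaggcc
Mrc1: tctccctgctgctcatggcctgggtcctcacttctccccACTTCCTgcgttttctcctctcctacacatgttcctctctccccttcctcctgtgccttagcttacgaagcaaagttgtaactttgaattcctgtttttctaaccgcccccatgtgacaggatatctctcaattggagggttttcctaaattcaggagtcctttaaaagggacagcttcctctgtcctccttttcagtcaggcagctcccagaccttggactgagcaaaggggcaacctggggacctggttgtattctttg
P2ry12: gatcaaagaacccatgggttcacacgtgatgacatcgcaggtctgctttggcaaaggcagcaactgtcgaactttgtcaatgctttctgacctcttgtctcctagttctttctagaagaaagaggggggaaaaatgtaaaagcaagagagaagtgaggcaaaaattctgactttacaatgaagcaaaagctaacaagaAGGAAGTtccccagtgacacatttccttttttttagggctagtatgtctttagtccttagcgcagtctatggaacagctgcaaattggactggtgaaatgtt

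Among the receptors, Csf1r binds the growth factors CSF1 and IL-34 and is needed for the survival of microglia. Csf1r lies on chromosome 18 and had 19.9 (T1-1), 44.1 (T1-3), 15 (T1-4) and 22.8 (T1-5) CPM in IUGR hippocampi. In sham hippocampi it had 21.4 (S1-4), 26.0 (S1-6), 17.2 (S3-1) and 18.5 (S3-4) CPM. T1-3 was above and T1-4 was below all 4 sham samples. Csf1r overlaps Hmgxb3 on the opposite strand. The means were 25.5 ± 12.9 CPM in IUGR and 20.8 ± 3.89 CPM in sham (SD, n = 4), and edgeR gave a log2 fold change of 0.30 (SE 0.31, 95% interval -0.38 to 0.97, adjusted p = 0.992).

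Cx3cr1 (chr9:119901616-120069879, minus strand) is the receptor of the neuronal chemokine fractalkine and the gene most often used to label microglia. Its IUGR levels were 13.3 (T1-1), 20.7 (T1-3), 5.39 (T1-4) and 11.6 (T1-5) CPM. The sham levels of 9.52 (S1-4), 10.7 (S1-6), 10.1 (S3-1) and 11.1 (S3-4) CPM were the closest together of any member. In IUGR, 3 samples lay above all sham samples and T1-4 lay below them. The log2 fold change was 0.30 (SE 0.33, 95% interval -0.43 to 1.03, edgeR adjusted p = 1.00). The annotated span of Cx3cr1 overlaps Csrnp1 and Gorasp1 on the same strand and Ttc21a and Wdr48 on the other, so reads in shared stretches could have been counted for either gene.

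P2ry12 (chr3:59216272-59262871, minus strand) is the ADP receptor by which microglial processes find injury, and it did not follow the other members. Its levels were 5.40 (T1-1), 7.81 (T1-3), 7.50 (T1-4) and 11.1 (T1-5) CPM in IUGR. The sham levels were 8.87 (S1-4), 4.59 (S1-6), 8.47 (S3-1) and 7.34 (S3-4) CPM. T1-3 lay inside the sham range, T1-5 was the highest sample and a sham sample, S1-6, was the lowest. The log2 fold change was 0.12 (SE 0.28, 95% interval -0.51 to 0.75, edgeR adjusted p = 1.00). P2ry12 overlaps Med12l on the opposite strand.

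Trem2 (chr17:48346401-48354147, plus strand) is a lipid-sensing receptor that signals through the adaptor Tyrobp (DAP12), and both were read at low depth. Trem2 counts were between 18 and 53 per sample, or 1.95 (T1-1), 3.26 (T1-3), 1.52 (T1-4) and 2.81 (T1-5) CPM in IUGR. In sham samples Trem2 stood at 2.40 (S1-4), 2.08 (S1-6), 3.06 (S3-1) and 1.85 (S3-4) CPM. The group means, 2.38 ± 0.794 and 2.35 ± 0.525 CPM, were nearly the same, with a log2 fold change of 0.03 (SE 0.33) and a 95% interval from -0.70 to 0.75. Tyrobp (chr7:30413760-30417585, plus strand) had 2.77 (T1-1), 13.5 (T1-3), 4.97 (T1-4) and 6.84 (T1-5) CPM in IUGR. Its sham levels were 5.64 (S1-4), 6.67 (S1-6), 7.06 (S3-1) and 3.49 (S3-4) CPM. For Tyrobp, T1-3 was 2.37 times the sham mean and T1-1 was below every sham sample, so the log2 fold change of 0.31 (SE 0.44) had a wide 95% interval, -0.66 to 1.27.

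C1qa, C1qb and C1qc encode the 3 chains of C1q, the recognition molecule that starts the classical complement pathway and that microglia make in the brain. They lie side by side on the minus strand of chromosome 4, with C1qb at chr4:136880129-136886187, C1qc at chr4:136889804-136893065 and C1qa at chr4:136895917-136898803. In IUGR samples C1qa had 6.29 (T1-1), 24.1 (T1-3), 10.4 (T1-4) and 13.3 (T1-5) CPM, and in sham samples 10.5 (S1-4), 12.03 (S1-6), 12.9 (S3-1) and 7.84 (S3-4) CPM. For C1qb the IUGR levels were 8.69 (T1-1), 24.4 (T1-3), 9.86 (T1-4) and 11.03 (T1-5) CPM, and the sham levels 9.80 (S1-4), 13.1 (S1-6), 10.8 (S3-1) and 6.77 (S3-4) CPM. C1qc showed 7.94 (T1-1), 24.8 (T1-3), 9.86 (T1-4) and 11.7 (T1-5) CPM in IUGR, against 11.9 (S1-4), 14.3 (S1-6), 15.5 (S3-1) and 8.13 (S3-4) CPM in sham. For each chain, T1-3 was between 1.99 and 2.41 times the sham mean while the other IUGR samples stayed within or close to the sham range. The log2 fold changes were 0.32 for C1qa (SE 0.36, 95% interval -0.47 to 1.12), 0.42 for C1qb (SE 0.34, -0.34 to 1.18) and 0.13 for C1qc (SE 0.35, -0.66 to 0.91). Across the 8 samples the chains rose and fell with Tyrobp, with a Pearson r of 0.99 (Spearman rho 0.98) for C1qa, 0.96 (rho 0.93) for C1qc and 0.90 (rho 0.86) for C1qb, and r was 0.99, 0.93 and 0.79 without T1-3. P2ry12 had an r between -0.06 and 0.48 with the other 9 members, and the samples share library depth and dissection in all of these pairs.

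Aif1 (Iba1), the calcium-binding protein used to stain microglia, was the most sparsely counted member, with 11 to 58 counts per sample. Its levels were 0.824 (T1-1), 3.56 (T1-3), 1.52 (T1-4) and 2.59 (T1-5) CPM in IUGR, and 1.66 (S1-4), 1.99 (S1-6), 2.51 (S3-1) and 1.92 (S3-4) CPM in sham. IUGR samples thus lay on both sides of the sham range. The log2 fold change was 0.08 (SE 0.42, 95% interval -0.86 to 1.02).

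Mrc1 (chr2:14229392-14332057, plus strand), the marker of border macrophages, varied more between IUGR samples than any other member. Its counts gave 23.2 (T1-1), 111 (T1-3), 4.04 (T1-4) and 48.7 (T1-5) CPM in IUGR hippocampi. Sham hippocampi had 22.0 (S1-4), 24.2 (S1-6), 20.2 (S3-1) and 14.97 (S3-4) CPM. T1-3 and T1-5 stood above all sham samples, T1-1 stood within them and T1-4 below them, so the highest IUGR sample was 27.3 times the lowest, against 1.62 times in sham. The log2 fold change of 1.20 was the largest of the 10 members, but its error was large too (SE 0.69, 95% interval -0.33 to 2.73, edgeR adjusted p = 0.665), and an exact two-sided permutation test gave p = 0.343, where 4 against 4 samples cannot go below 0.0286. Without T1-3 the log2 fold change was 0.34, and with limma-voom it was 0.49. Without T1-1 and T1-4, the IUGR samples with the lowest choroid plexus markers and also the lowest Mrc1, it was 1.97 with an edgeR adjusted p of 0.0247, and this was the only alternative fit that called a member (adjusted p of Mrc1 from 0.0247 to 1.00 over the 19 alternatives). Without T1-1 and T1-4, 6 of 10 members (14.0% of all tested genes) had an unadjusted edgeR p under 0.05, 239 genes were called and the median log2 fold change of the members was 0.66. Without T1-4 alone, 2 of 10 members (11.6% of all tested genes) had such a p, with a median of 0.44. T1-1 or T1-4 holds the lowest level of 8 of 10 members, so these counts depend on which samples were left out.

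The ratio of Mrc1 to P2ry12 counts, a measure that library size does not touch, was 4.29 (T1-1), 14.2 (T1-3), 0.539 (T1-4) and 4.38 (T1-5) in IUGR. In sham it was 2.48 (S1-4), 5.28 (S1-6), 2.39 (S3-1) and 2.04 (S3-4). T1-3 was thus above and T1-4 below the whole sham range of this ratio, while T1-1 and T1-5 were within it. The ratio of Mrc1 to Csf1r was 1.17 (T1-1), 2.50 (T1-3), 0.270 (T1-4) and 2.13 (T1-5) in IUGR and 0.808 to 1.18 in sham, so that here T1-5 was above the sham range as well.

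All 10 fitted fold changes were above 0, where 44.5% of all tested genes were, with a median log2 fold change of 0.30 against -0.02 for all tested genes. This direction rested on T1-3. Without T1-3, P2ry12 (0.16) and Mrc1 (0.34) were still above 0 and the other 8 members were below it, between -0.31 (C1qc) and -0.0013 (C1qb), with a median of -0.08. In a fit with the number in the sample name as a block, chosen after seeing the data, in which neither T1-3 nor T1-5 has a sham partner, 1 of 10 (C1qb) was above 0. T1-3 was also the largest library, with 16672463 counts on genes against 11212632 to 15405748 in the other 7, and CPM is scaled for this. In exact permutation tests of the CPM of each member the smallest p was 0.343 (Mrc1) and the largest 0.943.

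**Figure D2:**
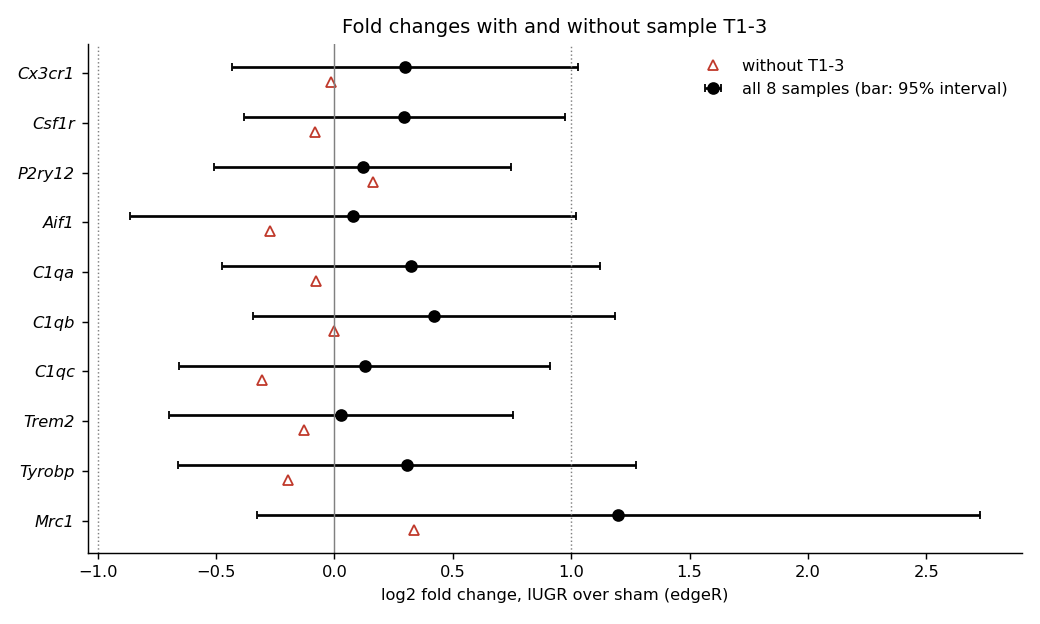
Log2 fold change of IUGR over sham for each gene by edgeR with all 8 samples (circles, bars for the 95% interval) and without T1-3 (open triangles), with dotted lines at the threshold of 1. Every interval crosses 0, and 8 of 10 values fall below 0 without T1-3.

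The spread between samples was wider in IUGR than in sham for 9 of 10 members, and for 52.6% of all tested genes. The median SD of log2 CPM over the members was 0.75 in IUGR and 0.31 in sham, while over all tested genes it was 0.26 in both groups. Mrc1 had the widest IUGR spread (SD 2.01 against 0.30 in sham), followed by Tyrobp (0.93 against 0.45) and Aif1 (0.84 against 0.23). Cx3cr1 had the narrowest sham spread, with 0.79 in IUGR against 0.10. P2ry12 was the exception, with 0.42 in both groups. With T1-3 left out, 8 of 10 members still had the wider spread in IUGR (47.5% of all tested genes), with a median SD of 0.53. This difference in spread was not tested.

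**Figure D3:**
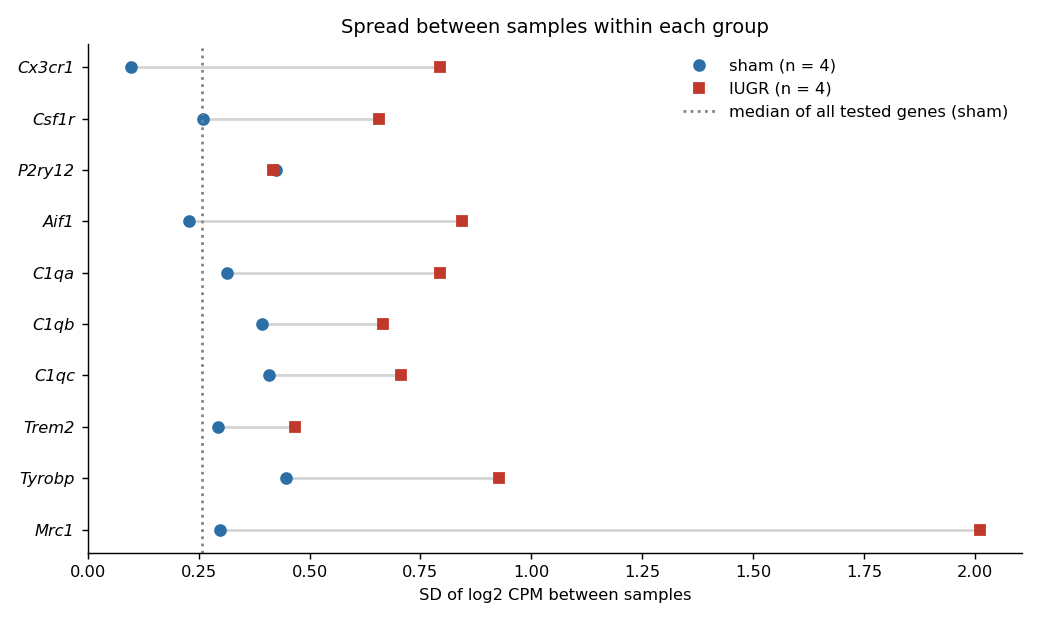
SD of log2 CPM between the 4 samples of each group, for each gene, with sham as blue circles, IUGR as red squares and the median over all tested genes in sham (0.26) as a dotted line. The IUGR square lies to the right of the sham circle for every gene except P2ry12, and farthest for Mrc1.

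The summed level of the 10 members was 90.2 (T1-1), 277 (T1-3), 70.1 (T1-4) and 142 (T1-5) CPM in IUGR, and 104 (S1-4), 116 (S1-6), 108 (S3-1) and 82.0 (S3-4) CPM in sham. Mrc1 carried much of the differences. Without it the sum was 67.1 (T1-1), 166 (T1-3), 66.1 (T1-4) and 93.8 (T1-5) CPM in IUGR, against 67.0 to 91.4 CPM in sham, so that T1-3 alone stood well apart from the sham range. The 10 members took between 0.00644% and 0.0270% of the counts of a library. T1-3 held the highest level of 9 members (17.2% of all tested genes were highest there), and T1-1 and T1-4 each held the lowest level of 4 (13.4% and 14.8% of all tested genes).

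Per kilobase of annotated exon, the sham levels were highest for C1qa (10.4 ± 2.15 CPM per kb), C1qb (9.30 ± 2.40), Tyrobp (8.57 ± 2.40) and C1qc (6.46 ± 1.69). Csf1r (3.60 ± 0.674), Mrc1 (3.20 ± 0.620), P2ry12 (2.87 ± 0.759) and Cx3cr1 (2.30 ± 0.156) came next, followed by Aif1 (1.32 ± 0.231) and Trem2 (0.475 ± 0.106 CPM per kb). Neighbours in this order overlapped between samples, except that Aif1 was below all values of Cx3cr1 and Trem2 below all values of Aif1. Per kilobase of the longest coding transcript, C1qc (10.4 CPM per kb) moved up to stand next to C1qa, C1qb came after Tyrobp, Aif1 (2.31) came just before Cx3cr1 (2.31), and Trem2, still last, stood at 2.16 CPM per kb and overlapped Cx3cr1. In IUGR the order by exon length changed only in that Mrc1 (7.31 ± 7.28 CPM per kb) passed C1qc (7.03 ± 3.95) and Csf1r, with overlapping values.

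The genes most like the 9 members other than Mrc1 in their pattern over the 8 samples were sought by the Pearson r with the mean standardized log2 CPM. They were Fcrls (r = 0.981), a receptor-like gene enriched in microglia, Cd53 (0.973), a tetraspanin of blood-derived cells, Dse (0.972), Cd302 (0.970), a C-type lectin, and Tmem37 (0.970). Fcrls had 9.22, 18.6, 8.68 and 12.2 CPM in T1-1, T1-3, T1-4 and T1-5, and 9.27 to 11.7 CPM in sham.

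Mrc1 was most like another set of genes. The closest were Col6a3 (r = 0.992), Tbx18 (0.992), a transcription factor of mural and meningeal cells, Col3a1 (0.991), Col6a1 (0.988) and Slc38a4 (0.986), and the 3 collagens are products of fibroblasts. Col3a1 had 187 (T1-1), 1310.0 (T1-3), 22.5 (T1-4) and 310 (T1-5) CPM in IUGR, against 89.1 to 173 CPM in sham. T1-3 was thus the highest and T1-4 the lowest sample for Col3a1, as for Mrc1.

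Other macrophage genes were read from lists, and a call below is one by edgeR unless another tool is named. Of 30 pan-macrophage genes 26 were tested, 22 were above 0 and 4 below, and 0 were called (1.46% of all genes), with a median log2 fold change of 0.27 that was 0.00 without T1-3. Of the 26, 20 were highest in T1-3 and 10 lowest in T1-4. At an unadjusted p under 0.05, 4 were above 0 and 1 was below. Those above were Cybb (1.45), a subunit of the phagocyte NADPH oxidase, Fcer1g (1.14), Lyz2 (1.04) and Lcp1 (0.70), an actin-bundling protein of leukocytes, all chosen after their values were seen. Lcp1 had 23.3 to 35.3 CPM in IUGR samples, above the 14.98 to 21.6 CPM of sham samples (SE 0.19, edgeR adjusted p = 0.110, DESeq2 0.018, limma-voom 0.083), and neither its change nor that of Lgmn below reached 2-fold with edgeR. The gene below was Lgmn, a lysosomal protease of macrophages and other cells, which had 47.9 to 73.8 CPM in IUGR samples, below the 79.7 to 111 CPM of sham samples (log2 fold change -0.71, SE 0.16, edgeR adjusted p = 0.065, DESeq2 0.0055, limma-voom 0.048). Coro1a, Ctss and Cyba, the other most abundant genes of this list per length, had log2 fold changes of 0.14, -0.07 and 0.02. Of 14 tested microglia-enriched genes 6 were above 0 and 8 below, with 0 called and a median of -0.06. Cd81, Tgfbr1 and Sall1, among the most abundant of them, are also made by neural cells, and none was called (log2 fold changes -0.34, -0.07 and 0.08).

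Border macrophage genes, the class that Mrc1 marks, were mostly highest in the same sample as Mrc1. Of 12 tested, 11 were above 0 and 1 below, with 0 called and a median log2 fold change of 0.87 that was 0.21 without T1-3, and 11 of the 12 were highest in T1-3 and 8 lowest in T1-4. Stab1, a scavenger receptor, had 39.0 (T1-1), 128 (T1-3), 15.8 (T1-4) and 46.8 (T1-5) CPM in IUGR, against 21.6 to 45.4 CPM in sham (log2 fold change 0.87, SE 0.51). Pf4, a chemokine made by platelets and border macrophages, had 2.62, 12.4, 1.60 and 4.03 CPM in the same samples and 0.285 to 3.22 CPM in sham (1.42, SE 0.72). Igfbp4 (0.51) and Maf (-0.46) were the other abundant genes of the list, and Maf was highest in a sham sample (S1-4, 92.0 CPM).

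The partners of the members gave no call either. Of 13 tested ligands and cues, 9 were above 0 and 4 below, with 0 called, and without T1-3 these counts were 6 and 7. Cd200, a neuronal ligand that restrains macrophages, had a log2 fold change of 0.67 (SE 0.22, edgeR adjusted p = 0.213). Gas6, the bridge between dying cells and the receptor Axl, had 12.8 to 37.6 CPM in IUGR against 40.3 to 74.5 CPM in sham, with no overlap between the groups, and its log2 fold change of -1.23 (SE 0.31) missed the threshold at an edgeR adjusted p of 0.095, while DESeq2 called it lower. Tgfb3 (-0.66) and Cd47 (0.22) were the other 2 abundant cues. Csf1, a ligand of Csf1r, and Cx3cl1, the ligand of Cx3cr1, both had a log2 fold change of 0.06 (SE 0.33 for each). Il34, the other ligand of Csf1r, stood at 1.24 (SE 0.76, edgeR adjusted p = 0.714), from 2 to 42 counts. The highest log2 fold change of the list was that of Cxcl12, at 1.82 (SE 0.67, edgeR adjusted p = 0.292). Csf1, Cx3cl1, Il34 and Cxcl12 were chosen after their values were seen.

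In the list of Trem2 and Tyrobp signaling, 9 of 10 tested genes were above 0 with 0 called. The median was 0.35, or -0.05 without T1-3, and all 10 were highest in T1-3. The most abundant were Ptpn6 (0.37), Ms4a6d (0.74), Inpp5d (0.08) and Plcg2 (0.26). Of 15 tested complement genes beside C1q, 10 were above 0 and 5 below with 0 called, among them C1qbp (0.01), Serping1 (0.38), the inhibitor of C1, Cfp (0.28) and Masp1 (-0.39). C3, the central component of the cascade, and Cd55, an inhibitor of it, were chosen after their values were seen. C3 had 0.674 to 1.78 CPM in IUGR samples, above the 0.185 to 0.606 CPM of sham samples, from 2 to 29 counts (log2 fold change 1.77, SE 0.52, edgeR adjusted p = 0.155), and Cd55 had a log2 fold change of -1.29 (SE 0.49, edgeR adjusted p = 0.313). Phagocytosis receptors (8 above 0 and 4 below of 12), inflammatory genes (5 and 4 of 9) and interferon response genes (5 and 4 of 9) had 0 calls, and their medians were 0.05, 0.14 and 0.07. Without T1-3 the inflammatory and the interferon list each had 3 genes above 0 and 6 below, with medians of -0.056 and -0.14, and the phagocytosis list had 7 above and 5 below, with a median of 0.014. Genes listed for microglia of proliferative regions were mostly below 0 (9 of 11, median -0.15, 0 called), among them Apoe (-0.47), Ctsb (-0.20) and Fabp5 (-0.07), with Lgals1 (0.35) above it. Apart from Gas6, no gene of these 10 lists was called by DESeq2 or limma-voom. At an unadjusted p under 0.05, edgeR gave 2 genes above and 2 below 0 among the ligands, 1 above and 1 below in each of the complement and phagocytosis lists, 1 above in Trem2 and Tyrobp signaling, 1 below among the microglia-enriched genes and 0 in the other 4 lists.

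Markers of other cells were read in the same samples, and those of meningeal fibroblasts took the order of Mrc1. Of 15 meningeal fibroblast genes 14 were above 0, with 0 called, 14 were highest in T1-3 and 12 lowest in T1-4. Without T1-3, 7 were above 0 and 8 below, and the median log2 fold change went from 1.12 to -0.0073. Relative to the sham mean, their median log2 level was -0.10 (T1-1), 2.61 (T1-3), -1.93 (T1-4) and 0.89 (T1-5), where that of Mrc1 was 0.21, 2.45, -2.27 and 1.27. The median of the other 9 members was -0.39, 1.02, -0.29 and 0.27 in the same samples, with T1-1 lowest. The summed level of the meningeal genes was 2415 to 6571 CPM in IUGR against 1574 to 2554 CPM in sham, most of it from Nnat, an imprinted gene that neural cells also express (1958 to 3462 CPM in IUGR against 1189 to 1937 CPM in sham), with Col1a1 at 15.3 to 340 CPM and Ogn at 8.26 to 82.4 CPM in IUGR. The summed level of choroid plexus genes was 57.1 to 1339 CPM in IUGR against 5601 to 12276 CPM in sham, with no overlap. All 15 tested genes were below 0, the groups did not overlap for 11 of them, and edgeR called 3 lower (Folr1 -4.16, Cldn2 -3.76 and Otx2 -1.28). The abundant Kcne2, Clic6, Aqp1 and Enpp2 were not called (-3.63, -3.03, -3.58 and -1.52). DESeq2 called 6 and limma-voom 10 of these 15 genes, all lower. Kcne2 stood at 0.450 CPM in T1-1 and 0.421 CPM in T1-4, against 18.7 in T1-3 and 26.6 in T1-5. The part of meningeal or choroid plexus tissue in the levels of Mrc1 and the other members was not tested.

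Blood and vessel markers were also read. Of 20 listed genes of other leukocytes only 4 were tested, all above 0 with 0 called by edgeR (1, S100a9, by DESeq2), and the neutrophil genes S100a9 and S100a8 were highest in T1-5 (17.8 and 10.7 CPM) and T1-3 (5.78 and 4.06 CPM) against at most 0.519 and 1.04 CPM in sham, with Ccr2 and Cpa3 at no more than 2.40 and 2.13 CPM in any sample. The erythroid list had all 11 tested genes above 0 with 0 called (median 0.46), with a summed level of 681 to 2194 CPM in IUGR against 1087 to 1643 CPM in sham, and the globins Hbb-bs (0.19), Hbb-y (0.54), Hbb-bt (0.25) and Hba-a1 (0.34). Endothelial and pericyte genes were above 0 in 13 of 18 with 0 called (median 0.40), with summed levels of 601 to 948 CPM in IUGR against 586 to 780 CPM in sham, among them Rgs5 (0.40), Cldn5 (0.59), Slc2a1 (-0.02) and Vtn (1.45). Genes of the dorsal telencephalon, which check the tissue, were present in all samples, with Bcl11b at 306 to 462 CPM and Neurod6, Lhx2 and Eomes not called, and 4 of 15 were above 0. At an unadjusted p under 0.05, edgeR gave 14 of the 15 choroid plexus genes below 0, 1 meningeal gene above and 1 below, 5 endothelial and pericyte genes above and 2 below, 2 leukocyte genes above, 2 telencephalic genes below and 0 erythroid genes, and 1 endothelial gene was called lower by limma-voom. T1-3 was the highest sample for 9 of 11 erythroid and 10 of 18 endothelial and pericyte genes (17.2% of all tested genes). T1-4 was the lowest for 6 and 3 of them (14.8% of all tested genes). The part of blood or vessel cells in the members' levels was not tested.

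**Figure D4:**
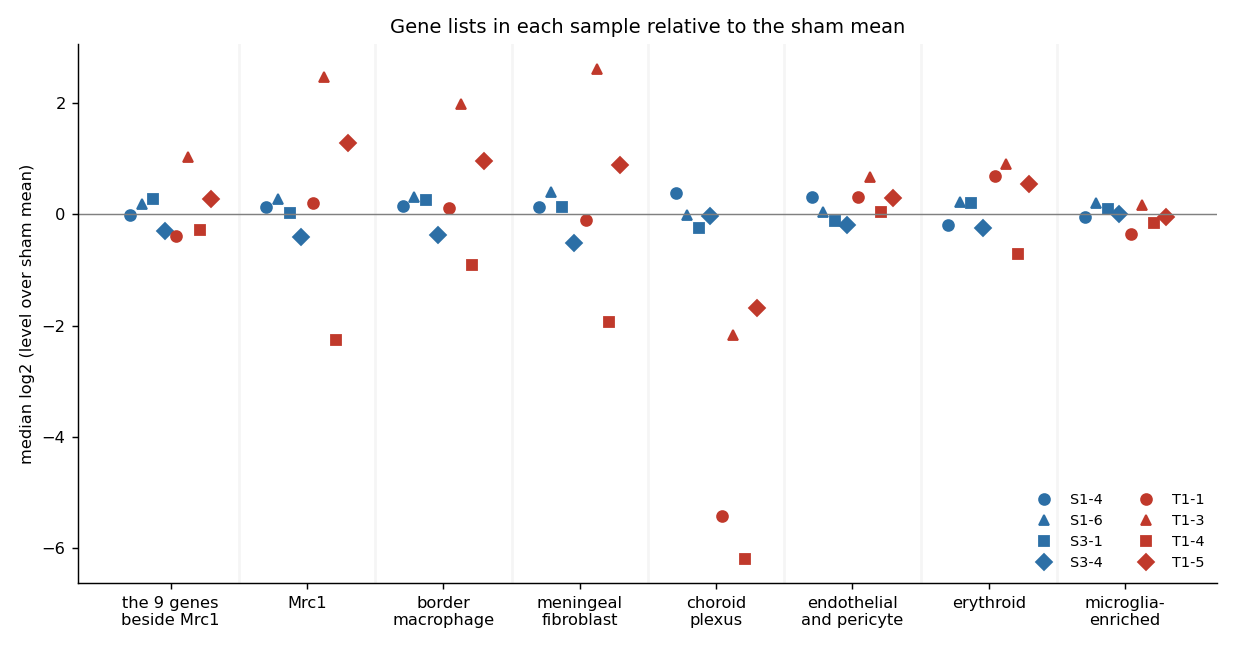
Median log2 level relative to the sham mean in each sample, for the 9 genes beside Mrc1, for Mrc1 alone and for the tested genes of 6 lists, with sham in blue and IUGR in red. Mrc1, border macrophage and meningeal fibroblast genes share an order of IUGR samples with T1-3 at the top and T1-4 at the bottom. Genes of the erythroid list and of the endothelial and pericyte list also have T1-3 highest and T1-4 lowest of the IUGR samples. Choroid plexus genes are below the sham samples in all 4 IUGR samples.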

How the data were processed

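RNA of 4 IUGR and 4 sham E15.5 hippocampi was sequenced as single reads from strand-keeping libraries after removal of ribosomal RNA. Per the study's methods, alignment was to GRCm38. The deposited values are raw counts of reads per gene, not normalized by the authors, with a column for each sample. The submitters' processing notes name Novoalign 2.8 and mm10, and the counting program, annotation and strand setting are not given in the sources used here. The meaning of the name prefixes T1, S1 and S3 is not given in the labels either, and samples were grouped by the labelled treatment. No listed gene stays under 10 counts in every sample, and totals were between 11212632 and 16672463 counts.

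Identifiers were matched to GENCODE M21 (16124 of 16397), and protein-coding genes whose mean count was 10 or more but under 50000 (13707 genes) were tested in R 4.3.3 with edgeR 4.0.16 (TMM, quasi-likelihood test, Benjamini-Hochberg adjustment over all tested genes). The scripts were tested on simulated data. CPM used TMM-scaled library sizes, with a prior count of 2 for log2 values. Exact permutation tests used CPM. The members and the 16 other lists were chosen with earlier results of these data known. Named were the 10 members, every called gene and up to 4 tested genes of each list with the highest mean level per length, and the 5 genes most like each of the 2 profiles. A gene that this rule names is not reported here. Promoter sequences were read from RefSeq. As alternatives, edgeR was run with upper-quartile scaling or with size factors of DESeq2, and the counts were tested with DESeq2 1.42.0 (Wald test) and voom of limma 3.58.1. Other alternatives were no count filter, edgeR's default filter, all biotypes, adjusted p alone, each sample left out, each sham prefix alone, T1-1 and T1-4 left out and, added after seeing the data, the number in the sample name as a block.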

Additional observations from a re-analysis of the deposited data

Results flagged for a closer look

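The C1qb level of T1-3 stood far from those of the other 3 IUGR samples. It was 24.4 CPM, and its gap to the nearest of them was 0.851 of the range of the group, above Dixon's critical value for 4 samples. Of the 20 groups looked at (10 members in IUGR and in sham), this was the only 1 past that limit, and chance alone passes it in about 1 of 20. Cx3cr1, Csf1r, Aif1, C1qa, C1qc, Trem2, Tyrobp and Mrc1 were also highest in T1-3 without passing the limit.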

How the results depend on the processing

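The count of members called was 0 in all alternatives except without T1-1 and T1-4, where it was 1 (Mrc1). With each sample left out in turn it was 0 throughout. The number of members above 0 was 10 in most alternatives, 9 with limma-voom, 8 with sham prefix S3 alone and 2 to 10 with each sample left out, with 2 without T1-3, 7 without T1-5, 8 without S3-4 and 9 without S1-6. Outside those, Aif1 turned to -0.087 with limma-voom, and Aif1 (-0.026) and Trem2 (-0.0075) turned with sham prefix S3 alone. With a sample left out, the members that turned lay between -0.31 and -0.0013 without T1-3 (Cx3cr1 -0.013, Csf1r -0.082, Aif1 -0.27, C1qa -0.078, C1qb -0.0013, C1qc -0.31, Trem2 -0.13 and Tyrobp -0.20), between -0.084 and -0.024 without T1-5 (P2ry12 -0.084, Aif1 -0.024 and Trem2 -0.056), at -0.014 without S1-6 (P2ry12), and at -0.033 and -0.072 without S3-4 (C1qc and Trem2). Mrc1 stayed above 0 in all alternatives but the replicate block below, and was 0.49 with limma-voom and 1.22 with DESeq2.

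Over all genes, 200 calls became 425 with DESeq2, 328 with limma-voom, 0 with sham prefix S1 alone, 2 with sham prefix S3 alone and 41 to 298 with each sample left out (65 without T1-1, 111 without T1-4, 128 without S1-6, 60 without S3-4, 41 without S1-4 and 105 without S3-1). With samples left out, calls also rose, to 298 without T1-5, 211 without T1-3 and 239 without T1-1 and T1-4. The cause of these shifts was not tested, and the fits that leave samples out also have fewer samples. The names of the groups share the numbers 1 (T1-1 and S3-1) and 4 (T1-4, S1-4 and S3-4), which the labels do not tie to a litter or day, and the deviations of these samples from their group means had correlations of -0.11 (number 1), -0.085 and 0.085 (number 4) across genes. A fit with this number as a replicate block, chosen after seeing the data, gave 479 calls over all genes, 0 members called and 1 member above 0, with Cx3cr1 at -0.32, Csf1r at -0.14, P2ry12 at -0.34, Aif1 at -0.80, C1qa at -0.32, C1qc at -0.42, Trem2 at -0.56, Tyrobp at -0.48 and Mrc1 at -1.01. T1-3 and T1-5 have no sham partner in that block. Aif1 and Trem2 had as few as 11 and 18 counts in a sample.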
